A study of Homo sapiens with 3 samples.

Results

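The nuclear-encoded oxidative phosphorylation (OXPHOS) genes were followed in ribosome profiling of HEK293T cells with and without the aminoglycoside G418. The genes were chosen by symbol: those starting with NDUF, COX and a digit, UQCR, UQCC, ATP5 or SDHA to SDHD, together with CYC1 and CYCS. This rule gave 80 transcripts, 1 for each gene, of the 8812 transcripts listed in all 3 libraries. Complex I held 33 of them (27 subunits and 6 assembly factors), complex II 6 (2 subunits, SDHC and SDHD, and 4 assembly factors that the symbol pattern also took in), complex III 12 (9 subunits and 3 assembly factors), complex IV 15 (7 nuclear subunits, NDUFA4 among them, and 8 assembly factors) and complex V 14 (13 subunits and the inhibitor ATP5IF1). Genes without a transcript in this list, CYCS, SDHA and SDHB among them, and the subunits encoded by mitochondrial DNA were not analysed here. The counts are therefore not the full subunit sets of the complexes.

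Oxidative phosphorylation takes place in the inner mitochondrial membrane. Complexes I and II feed electrons from NADH and succinate into the respiratory chain, complex III passes them to cytochrome c and complex IV to oxygen, and complex V uses the proton gradient built by complexes I, III and IV to make ATP. Most subunits are small proteins made on cytosolic ribosomes from nuclear mRNAs and imported, while a few core subunits are made inside the organelle. Most assembly factors are not part of the finished complexes: they insert cofactors and hold intermediates together. COX7A2L, which helps to join complexes III and IV, is counted with them here.

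HEK293T cells derive from human embryonic kidney and express the large T antigen of SV40. They were grown without drug (0 µg/mL, 2 libraries, named Untreated A and Untreated B) or with 500 µg/mL G418 over 24 hours (1 library, named G418 A). G418 sits in the decoding centre of the ribosome, where it makes the reading of codons less accurate. Ribosome-protected fragments (RPFs) were counted on 1 transcript per gene, which showed how many ribosomes occupied its coding sequence (CDS) and the stretch of 3′UTR from the normal termination codon (NTC) to the first in-frame stop codon after it (3′TC). The comparison asked which OXPHOS mRNAs carried fewer or more ribosomes in G418 and how often ribosomes ran past their stop codons. A fall in CDS reads can come from less mRNA or from fewer ribosomes per mRNA, and these cannot be told apart in RPF data.

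The RPM scale (reads over a common total, that of all reads assigned to transcripts) rested on 5857230 and 9477972 reads in the untreated libraries (A, then B) and 7216039 with G418. The OXPHOS transcripts took 1.98%, 2% and 1.82% of the listed CDS reads in these libraries. Of the 80, 73 had enough CDS reads to be tested, among 5684 transcripts in all. COX10, COX19, COX20, NDUFAF6, SDHAF1, SDHAF4 and UQCC3, all assembly factors, had too few. The CDS levels of the 73 ran from 17.9 RPM through a median of 113 to 1401 RPM in Untreated A, from 20.6 through 113 to 1509 in Untreated B and from 16.9 through 105 to 1444 in G418 A.

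The stop codons that the results turn on are shown with 15 nt before them and 11 nt after the nucleotide that follows them, read from hg38. Capitals mark the stop codon and the next nucleotide, the 4-nt stop signal. NDUFA1 is shown for its CDS change and its readthrough, ATP5MC1 and UQCR10 for their CDS change, COX5B, COX4I1, ATP5F1B and UQCRQ because they share the signal UGAG (as does ATP5MC1) and differ in readthrough, and NDUFAF2, NDUFA7 and ATP5MPL for their readthrough under other signals.
NDUFA1: ttggagaacattgatTAAGgaagcattttc
ATP5MC1: atcctcttcgccatgTGAGgctccatgggg
UQCR10: aagtatgagaacaagTAGTtccttggaggc
COX5B: cagcagctggcacacTGAGcacctgcacta
COX4I1: aacgagtggaagaagTGAGagatgctggcc
ATP5F1B: gaagagcattcatcgTGAGgggtctttgtc
UQCRQ: tatgaaaatgacaaaTGAGcaacgcatccg
NDUFAF2: aagagccacaatcaaTGAAtgcattatggt
NDUFA7: gaccagccttacctgTGACactgcaccctc
ATP5MPL: gctcctggtcatcacTAACcagatttactt

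In GENCODE v44 all of these stop codons lie in the last exon of their transcript. They are at chrX:119876532-119876534 (NDUFA1, plus strand, exon 3 of 3), chr17:48895767-48895769 (ATP5MC1, plus, exon 5 of 5), chr22:29769717-29769719 (UQCR10, plus, exon 2 of 2) and chr2:97648106-97648108 (COX5B, plus, exon 4 of 4). The others are at chr16:85806872-85806874 (COX4I1, plus, exon 5 of 5), chr12:56638323-56638325 (ATP5F1B, minus, exon 10 of 10), chr5:132867580-132867582 (UQCRQ, plus, exon 2 of 2), chr5:61152953-61152955 (NDUFAF2, plus, exon 4 of 4), chr19:8311505-8311507 (NDUFA7, minus, exon 4 of 4) and chr14:103912666-103912668 (ATP5MPL, minus, exon 5 of 5).

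In G418, CDS reads fell for 5 of the 73 OXPHOS transcripts tested and rose for 0 (edgeR quasi-likelihood test, Benjamini-Hochberg adjusted p under 0.05). Over all 5684 transcripts the same test called 0.721% lower and 1.94% higher. The 5 were NDUFA1 in complex I, UQCRHL and UQCR10 in complex III, and ATP5MC1 and ATP5MC2 in complex V, all subunits. At an unadjusted p under 0.05, 13 of the 73 were lower and 1 was higher, beside 315 and 460 of the 5684. DESeq2 called 2 of the 73 lower and 0 higher, beside 16 and 10 of the 5684. It gave no adjusted p to some of the 73, such as ATP5IF1, COX7A2L and SDHD, so it could not call these. The G418 group had 1 library, so the test assumed that it varied like the untreated pair. The p-values and SE of edgeR rest on the spread of that pair, pooled over transcripts. They measure neither the spread of a single gene nor that between G418 cultures. The median log2 CDS change of the 73 was −0.15, against 0.00 over all transcripts and 0.01 for Untreated B over Untreated A in the same 73. Of the 73, 32 lay below both untreated libraries in RPM, 20 above both and 21 between them, where 27.9% of all transcripts lay below both and 46.3% above both.

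NDUFA1, a small single-pass subunit of the complex I membrane arm encoded on the X chromosome, had 186 and 212 RPM in the untreated libraries (A, then B) and 80.1 with G418. Its level in G418 lay well below the untreated pair, which differed little from each other. The log2 change was −1.38 ± 0.20 (SE, edgeR, adjusted p = 2.2e-08), and it was the lowest among all 5684 transcripts. It was −1.30 against Untreated A alone and −1.46 against Untreated B alone. Of the 28-nt windows of its CDS, 2.78% also occur elsewhere in hg38.

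ATP5MC1 and ATP5MC2 both encode subunit c of complex V, the protein that forms the rotating ring in the membrane. ATP5MC1 had 112 and 113 RPM in the untreated libraries (A, then B) and 56.7 with G418, a log2 change of −1.06 ± 0.21 (SE, edgeR, adjusted p = 2.57e-04). ATP5MC2 had 272, 302 and 198 RPM in the same order, a log2 change of −0.60 ± 0.18 (SE, edgeR, adjusted p = 0.0452). For both genes the G418 library lay below both untreated libraries. Copies elsewhere in hg38 matched 34.7% of the CDS windows of ATP5MC1 and 32.6% of those of ATP5MC2, and reads there could be divided between loci. DESeq2 kept the call of ATP5MC1 (adjusted p = 0.00384) and not that of ATP5MC2 (adjusted p = 0.114).

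UQCR10, a small membrane subunit of complex III, had 145 and 157 RPM in the untreated libraries (A, then B) and 94.8 with G418. Its log2 change was −0.74 ± 0.19 (SE, edgeR, adjusted p = 0.012; DESeq2 adjusted p = 0.0743). UQCRHL is an intronless copy of UQCRH, the hinge subunit of complex III, and its stop codon is at chr1:15807374-15807376 on the minus strand in the single exon of its transcript. UQCRHL had 90 and 73.3 RPM in the untreated libraries (A, then B) and 48.6 with G418, a log2 change of −0.81 ± 0.22 (SE, edgeR, adjusted p = 0.0189; DESeq2 adjusted p = 0.172). UQCRH itself had 179, 176 and 135 RPM, a log2 change of −0.46 ± 0.19 (SE, edgeR, adjusted p = 0.206). Of their CDS windows, 73.3% (UQCRH) and 54.7% (UQCRHL) occur elsewhere in hg38, so the split of reads between the pair is uncertain. Summed over both genes, the level was 268.6 and 249.7 RPM in the untreated libraries (A, then B) and 183.8 with G418, lower in G418 than in either untreated library.

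**Figure D1:**
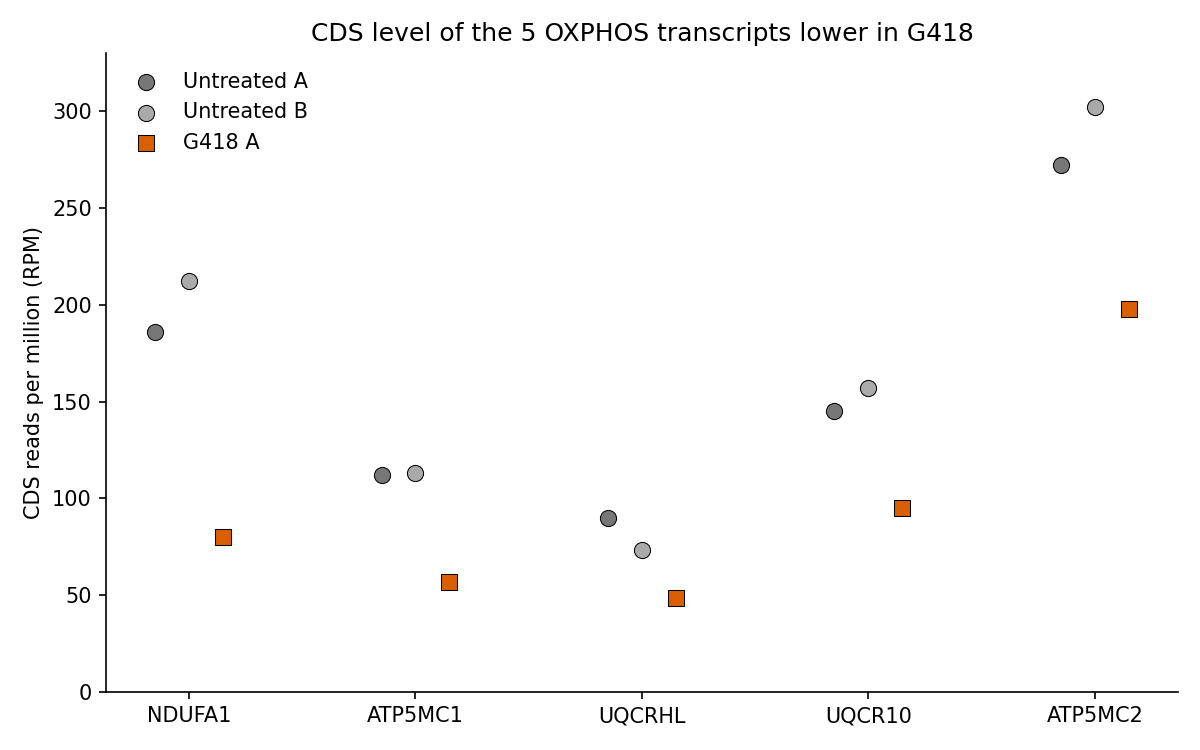
CDS level in RPM (vertical axis, from 0) of the 5 OXPHOS transcripts called lower by edgeR, 1 point per library (circles, Untreated A and Untreated B; squares, G418 A). In each gene the G418 square lies below both circles, from 80.1 against 186 and 212 RPM for NDUFA1 to 198 against 272 and 302 RPM for ATP5MC2.

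By the fold rule (a log2 change of at least 0.5 with the G418 RPM outside both untreated values), 8 OXPHOS transcripts were lower and 0 higher, beside 4.05% and 8.08% of all transcripts. The 8 were the 5 called by edgeR and, without a call, COX5B, COX6B1 and ATP5IF1. Untreated B differed from Untreated A by as much in 0 of the 73 downward and in 3 upward (NDUFB2, NDUFS7 and ATP5IF1), where 2.27% of all transcripts differed downward and 5.91% upward. These 3 values show that a change of this size also occurred between untreated libraries.

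In complex I, 17 of 32 transcripts lay below 0 and the median log2 change was −0.05, which turned to 0.02 on the RPM scale without TMM scaling, where the median of all transcripts was 0.07. NDUFA1 was the 1 transcript called. Next lowest was NDUFB6, a membrane-arm subunit with 305 and 280 RPM in the untreated libraries (A, then B) and 219 with G418 (log2 change −0.48 ± 0.18, SE, edgeR, adjusted p = 0.142). The highest values were in assembly factors: NDUFAF5 had 18.8, 21 and 27.4 RPM (log2 change 0.39 ± 0.32, SE, edgeR, adjusted p = 0.649) and NDUFAF1 had 29.2, 34.3 and 40.7 RPM (log2 change 0.29 ± 0.27, SE, edgeR, adjusted p = 0.717). Neither passed the test, although both lay above both untreated libraries. Among the arms of the complex, the medians were −0.22 for the 5 subunits of the NADH-oxidizing N module, −0.05 for the 6 of the quinone-reducing Q module and −0.14 for the 15 of the proton-pumping P module, to which NDUFA1 belongs. Between the untreated libraries the same medians were −0.28, 0.18 and 0.08, so the N and Q modules differed by more between the untreated libraries than with G418.

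Complex II had 4 transcripts tested, of which 0 were called by edgeR and 0 had an unadjusted p under 0.05, with a median log2 change of −0.16. DESeq2 gave an adjusted p to SDHC alone (0.914) and did not call it. SDHD, a membrane anchor, had 33.3 and 39.6 RPM in the untreated libraries (A, then B) and 31.3 with G418 (log2 change −0.29). SDHC, the other anchor, had 76.5, 79.9 and 73.7 RPM (log2 change −0.15). The assembly factors SDHAF2, which helps to attach FAD, and SDHAF3 stood at −0.17 and 0.08. All 4 changes were within the spread of the test, and 80.1% of the CDS windows of SDHD and 71.4% of those of SDHC occur elsewhere in hg38.

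In complex III, 10 of 11 transcripts lay below 0 and the median was −0.24. The 5 small subunits had a median of −0.47 and the 4 core subunits −0.11. Besides UQCR10, UQCRHL and UQCRH, UQCRQ, a subunit that lies beside cytochrome b, had 255 and 236 RPM in the untreated libraries (A, then B) and 186 with G418 (log2 change −0.47 ± 0.18, SE, edgeR, adjusted p = 0.17). At the other end, CYC1, the cytochrome c1 subunit that hands electrons to cytochrome c, had 101, 105 and 123 RPM (log2 change 0.18 ± 0.19, SE, edgeR, adjusted p = 0.761). UQCRFS1, the Rieske iron-sulfur protein, had 280, 262 and 281 RPM (log2 change −0.01). The core subunits ran from −0.24 to 0.18, and 4 of the 5 small subunits lay below both untreated libraries.

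In complex IV, 11 of 12 transcripts lay below 0, the median was −0.22 and 0 were called by edgeR or DESeq2, while 3 were lower at an unadjusted p under 0.05. All 7 nuclear subunits that were listed, which are not the full set, were below 0 (median −0.29), and 6 of the 7 lay below both untreated libraries. COX5B, which lies on the matrix side of the complex, had 216 and 230 RPM in the untreated libraries (A, then B) and 158 with G418 (log2 change −0.56 ± 0.19, SE, edgeR, adjusted p = 0.073). COX6B1, on the intermembrane side, had 385, 394 and 288 RPM (log2 change −0.50 ± 0.18, SE, edgeR, adjusted p = 0.12). The 5 assembly factors had a median of −0.03, with COX7A2L, which helps to join complexes III and IV, at 58.2, 53.6 and 58.9 RPM and COX11, which delivers copper, at 82.8, 73.1 and 81.3 RPM.

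In complex V, 11 of 14 transcripts lay below 0, with a median of −0.12. The 5 subunits of the membrane part had a median of −0.42 and all were below 0. The 5 of F1 and the central stalk had a median of −0.10, and the 3 of the peripheral stalk had 0.10. ATP5F1E, the epsilon subunit of the central stalk, was the highest, with 209 and 197 RPM in the untreated libraries (A, then B) and 272 with G418 (log2 change 0.35 ± 0.18, SE, edgeR, adjusted p = 0.36). ATP5PF, coupling factor 6 of the peripheral stalk, had 222, 223 and 283 RPM (log2 change 0.27 ± 0.18, SE, edgeR, adjusted p = 0.527). ATP5IF1, which blocks the enzyme when it would run backwards, had 36, 61.1 and 33.4 RPM (log2 change −0.62 ± 0.26, SE, edgeR, adjusted p = 0.23). Its untreated libraries differed by 0.73 on the log2 scale, more than the change itself. The listed models of these 3 genes end differently from their MANE Select models (the agreed reference transcripts). The most abundant transcripts of all 73, ATP5F1B and ATP5F1A of the catalytic head, had log2 changes of −0.08 and −0.19, with 1401, 1509 and 1444 RPM for ATP5F1B and 1147, 1150 and 1059 RPM for ATP5F1A.

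**Figure D2:**
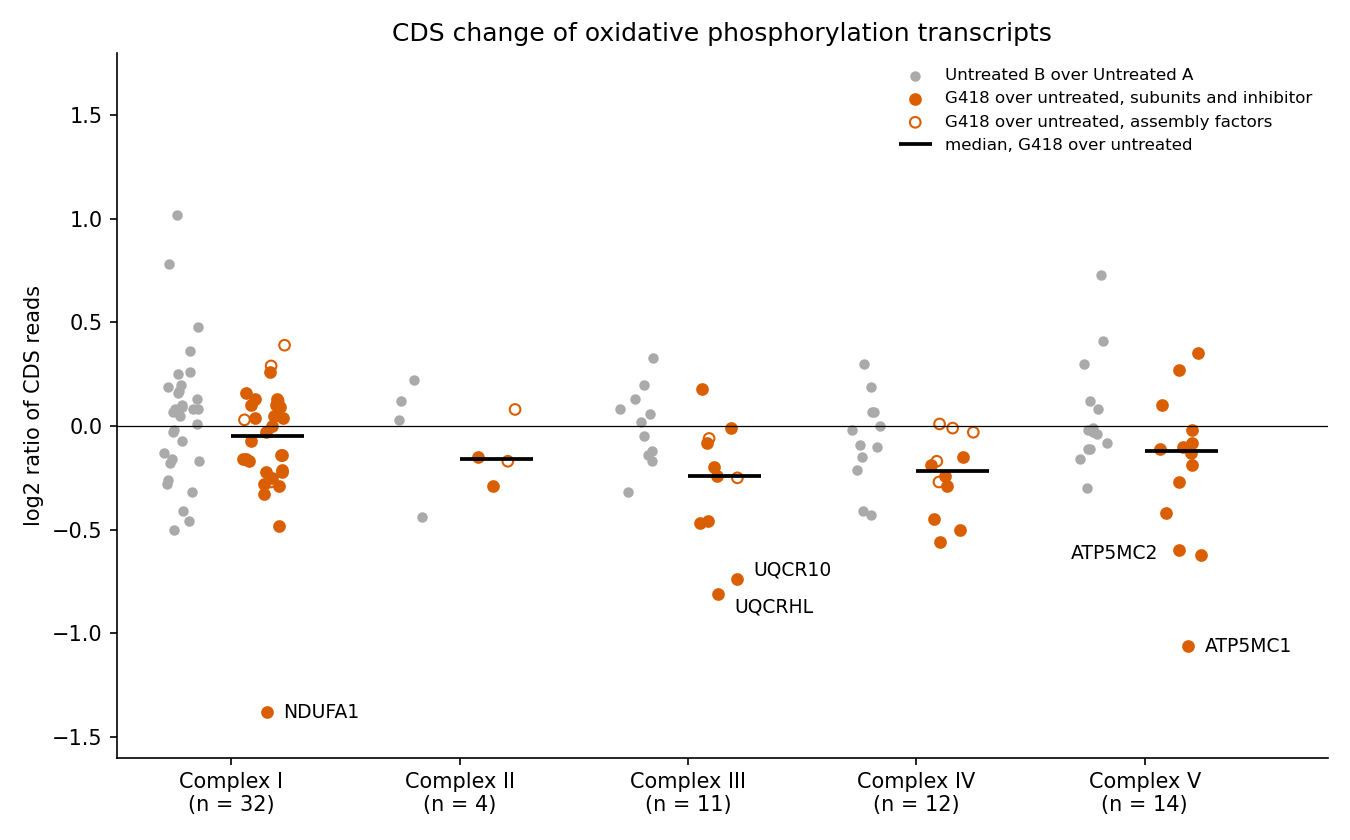
Log2 ratio of CDS reads (vertical axis) for the OXPHOS transcripts tested in each complex. Grey points compare the untreated libraries with each other, orange points compare G418 with untreated (filled, subunits and ATP5IF1; open, assembly factors), bars are medians, and the 5 transcripts called by edgeR are named. NDUFA1 lies at −1.38, well under the rest of complex I, whose median is −0.05.

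Over all complexes the 58 subunits had a median of −0.16 and the 14 assembly factors −0.02. Lists of other mitochondrial genes stood beside them. The 53 mitochondrial ribosomal protein transcripts tested had a median of 0.01 with 0 called by edgeR in either direction (2 lower and 2 higher at an unadjusted p under 0.05), and the 13 enzymes of the tricarboxylic acid cycle had −0.16 with 0 called (4 lower and 0 higher at an unadjusted p under 0.05). The 24 other OXPHOS assembly and mitochondrial gene expression factors had −0.04 with 0 lower and 1 higher by edgeR, and the 58 cytosolic ribosomal proteins had 0.11 with 0 lower and 1 higher (3 lower and 8 higher at an unadjusted p under 0.05). DESeq2 called 0 in each of these lists. Differences between complexes or lists were not tested, since their members are not replicates of a condition. OXPHOS transcripts are short: their median CDS was 426 nt and their median 3′UTR 192 nt, against 1467 nt and 940.5 nt over all transcripts. Across the 73, the Spearman rank correlation of log2 change with CDS length was 0.34, and across all 5684 it was −0.07. These points share the same 3 libraries.

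Readthrough was measured as the ribosome readthrough score (RRTS), the RPF density between NTC and 3′TC over the density of the CDS, given here in percent. Pooled over the 73 OXPHOS transcripts (reads found over reads expected at CDS density), RRTS was 1.47% (164 reads) and 1.2% (221 reads) in the untreated libraries and 18.9% (2290 reads) with G418. The exact Poisson 95% intervals, which cover counting error only, were 1.25 to 1.71, 1.05 to 1.37 and 18.1 to 19.7%. G418 thus stood 14.2-fold above the untreated mean of 1.33% ± 0.193 (SD, n = 2), and all transcripts together went from 1.57% and 1.25% to 21.3%, 15.2-fold. At least 1 readthrough read was found in 64 of the 73 with G418 (87.7%) and in 33 and 34 without drug (A, then B). Over all 5684 transcripts, 4310 (75.8%) had such a read with G418, and 1363 and 1270 without drug, in the same order. These counts also depend on read depth, which was higher for the OXPHOS transcripts (values below), so they do not show more readthrough in this group.

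Individually, 10 of 65 OXPHOS transcripts with enough expected reads rose in readthrough relative to CDS reads. The test was edgeR quasi-likelihood with the CDS reads as offset (adjusted p under 0.05), and 6.96% of the 2472 transcripts tested rose. Read depth differed between the lists. The median CDS density in G418 A was 286 RPKM (reads scaled to library size and length) over the 73 and 41.7 over all 5684. Of the cytosolic ribosomal protein transcripts, with a median of 1305, 15 of 58 rose. Of the mitochondrial ones, with 134, 3 of 44 rose. Whether read depth accounts for these shares was not tested, so they do not show which list had more readthrough. DESeq2 called 0 transcripts of any kind: 0 of 58 OXPHOS transcripts, with 12 at an unadjusted p under 0.05, and 0 of 2317 in all, with 383 higher at an unadjusted p under 0.05. The 10 were COX4I1, COX5B and COX6B1 of complex IV, UQCR10, UQCRH and UQCRQ of complex III, NDUFA1 and NDUFA7 of complex I, and ATP5F1B and ATP5MPL of complex V, all subunits. COX4I1, the largest nuclear subunit of complex IV, had 2 and 3 readthrough reads in the untreated libraries (A, then B) and 247 with G418, with RRTS of 0.315%, 0.273% and 33.2% (adjusted p = 6.76e-07 by edgeR). COX5B had 8, 13 and 172 reads, with RRTS of 4.19%, 3.94% and 99.6% (adjusted p = 1.37e-05 by edgeR). UQCR10 had 9, 12 and 132 reads, with RRTS of 0.982%, 0.75% and 17.9% (adjusted p = 7.94e-05 by edgeR). ATP5F1B, the catalytic beta subunit, had 0, 3 and 166 reads, with RRTS of 0%, 0.389% and 29.5% (adjusted p = 1.64e-04 by edgeR). In each of these genes the G418 library held more readthrough reads than either untreated library.

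NDUFA1, whose CDS reads fell, had 8 and 12 readthrough reads in the untreated libraries (A, then B) and 63 with G418. Its RRTS went from 2.45% and 1.99% to 36.3% (Poisson 95% interval 27.9 to 46.5%), a log2 change of 4.02 ± 1.01 (SE, edgeR, adjusted p = 0.00216). It ends in UAAG, the signal with the lowest pooled RRTS of all 12 in G418 (8.56% over 412 transcripts), and its RRTS was higher than that of 90.8% of them. At the rate of its signal 14.8 reads would have been found, where 63 were. Reading past this NTC adds 19 codons before the 3′TC. Among the other transcripts with lower CDS reads, ATP5MC1 had 0, 0 and 26 readthrough reads (RRTS 30.8% in G418), ATP5MC2 had 0, 0 and 5 (7.62%) and UQCRHL had 0, 3 and 18 (8.65%). These 3 did not pass the readthrough test, while UQCR10, the last of the transcripts with lower CDS reads, did, with an RRTS of 17.9%. Of the 28-nt windows of the readthrough region, 55.6% in ATP5MC2 and 34.7% in UQCRHL occur elsewhere in hg38.

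By complex, pooled RRTS in G418 A was 21.7% in complex I (609 reads, 32 transcripts), 27.4% in complex II (40 reads, 4 transcripts), 16.6% in complex III (461 reads, 11 transcripts), 25.9% in complex IV (703 reads, 12 transcripts) and 13% in complex V (477 reads, 14 transcripts). In Untreated A the values in the same order were 1.89, 0, 1.6, 1.01 and 1.46%, and in Untreated B 1.74, 2.46, 0.825, 0.963 and 1.25%. Complex II had 0 readthrough reads in Untreated A, which allows a pooled RRTS of up to 2.89% (upper Poisson limit). Fold changes over the untreated mean were 12 in complex I, 13.7 in complex III, 26.2 in complex IV and 9.6 in complex V. In counting error alone, complex V lay below complexes I and IV (intervals 11.9 to 14.2% against 20 to 23.5% and 24 to 27.9%). Complex II (19.5 to 37.3%) lay above complexes III (15.1 to 18.1%) and V and could not be told apart from complexes I and IV. Of its 40 reads, 22 were in SDHC, where 100% of the region windows also occur elsewhere in hg38.

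The complexes differed in their stop codons. UAA, the codon with the lowest pooled RRTS in G418 (12.2% over all transcripts, against 19.2% for UAG and 29.9% for UGA), ended 57.1% of complex V transcripts (8 of 14), 34.4% in complex I and 33.3% in complex IV, against 30% of all transcripts. UGA ended 58.3% of complex IV and 35.7% of complex V. Among the OXPHOS transcripts the order of the stop codons was the same as over all transcripts, with 11.3% for the 27 ending in UAA, 15% for the 12 in UAG and 30.4% for the 34 in UGA. Given the 4-nt stop signal of each transcript, the rate of all transcripts would have put 2272 reads past the NTCs of the 73, where 2290 were found, a ratio of 1.01 (Poisson 95% interval 0.967 to 1.05). The ratio was 0.954 in complex I, 1.32 in complex II, 1.09 in complex III, 1.22 in complex IV and 0.793 in complex V, and that of complex IV lay above 1 (1.13 to 1.31) and that of complex V below 1 (0.723 to 0.867) in counting error.

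The gaps between the complexes and the ratios to the rate of the stop signal depended on the transcript model. Of the 73, 57 have the stop codon and the readthrough region of the MANE Select transcript, 15 have another region and COX7B was not matched. With the MANE Select regions alone, pooled RRTS in G418 A was 23.3% for the OXPHOS transcripts and 23.5% for all 5047 transcripts of this kind. Complex I then had 23.9%, complex III 21%, complex IV 26.7% and complex V 20.5% (9 transcripts, interval 18.6 to 22.5%). Complex V was the lowest of these 4 in both sets, but its interval overlapped that of complex III (19.1 to 23.1%) with the MANE Select regions and not with the models as deposited (11.9 to 14.2% against 15.1 to 18.1%). The ratio to the rate of the stop signal became 0.98 in complex I, 1.2 in complex III, 1.14 in complex IV and 1.11 in complex V (1.01 to 1.22), on the other side of 1 for complex V. Over all OXPHOS transcripts with these regions the ratio was 1.1 (1.05 to 1.14), above 1 in counting error. The order of UAA and UAG among OXPHOS transcripts did not hold with these regions. RRTS was 16.1% for the 21 ending in UAA (14.8 to 17.4%) and 15.3% for the 9 in UAG (13.4 to 17.4%), where all transcripts had 13.6% and 21.2%.

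**Figure D3:**
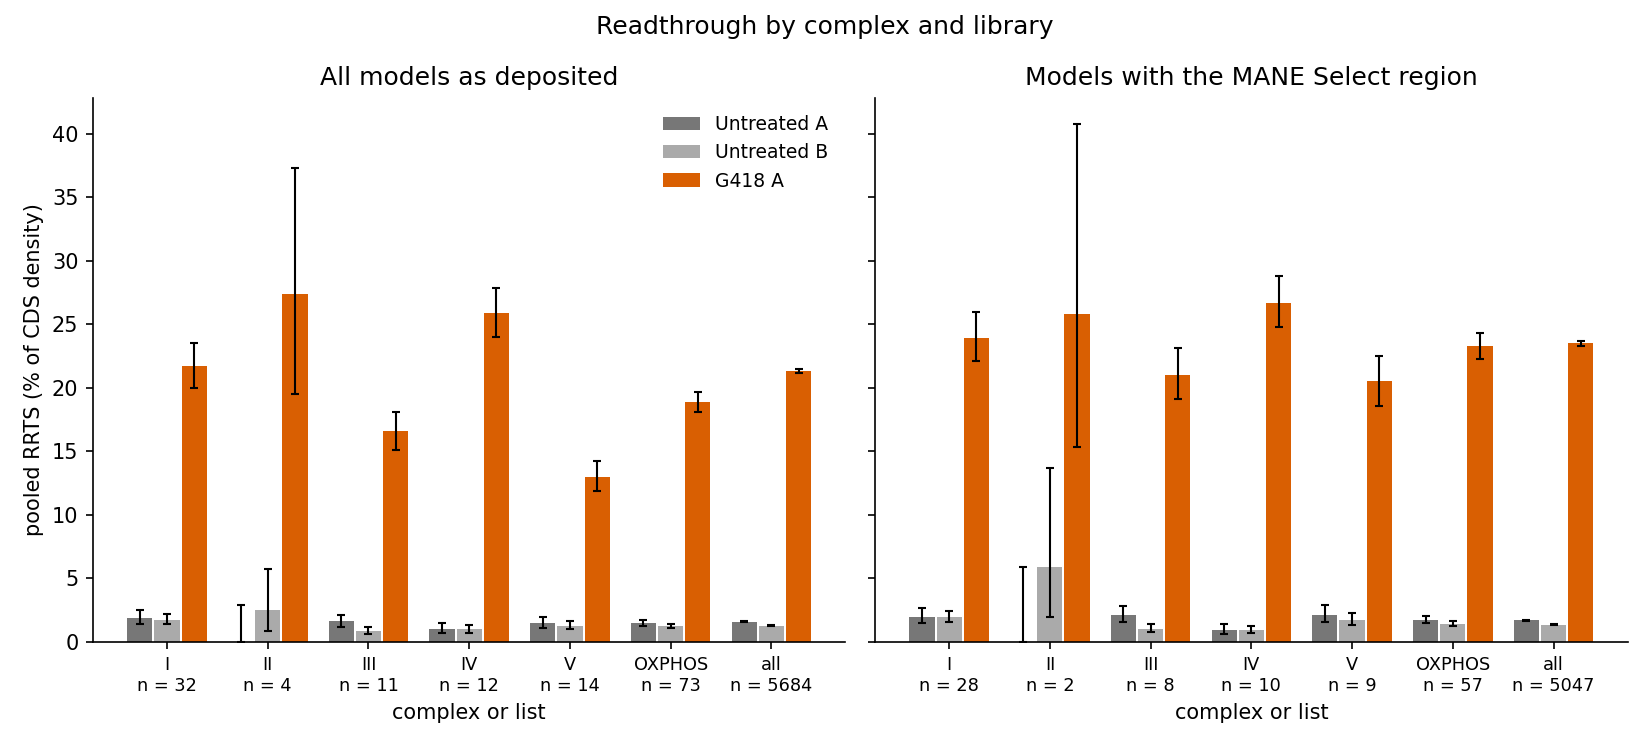
Pooled RRTS in percent of CDS density (vertical axis, bars from 0) for complexes I to V, all OXPHOS transcripts and all transcripts, with 1 bar per library and exact Poisson 95% intervals for counting error. The left panel has all models as deposited, where complex V stands at 13% in G418, and the right panel has the models with the MANE Select region, where it stands at 20.5%.

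Several OXPHOS transcripts showed no readthrough at all. ATP5F1E had 0 readthrough reads in each library, although 70.1 would have been found in G418 A at the rate of its signal UAAU, and a count of 0 allows an RRTS of up to 0.571% there (3 reads). ATP5PF also had 0, where 94.6 would have been found (up to 0.65%). NDUFA11 (up to 3.88%), NDUFB9 (up to 3.39%) and ATP5IF1 (up to 8.09%) had 0 as well, as did UQCRC2 (up to 7.47%) and SDHD (up to 7.8%), the last 2 chosen after their values were seen. None of the 7 had a read anywhere in the listed 3′UTR in any library, and all 7 are among the 15 transcripts whose region differs from MANE Select. Among the 57 with the MANE Select region, 1 (NDUFAF1) had no 3′UTR read in any library. Over all transcripts, 177 of 450 with another region and 362 of 5047 with the MANE Select region had none. Whether cells use the listed 3′ ends was not tested.

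Among the 73 transcripts over the minimum of CDS reads, the highest RRTS values in G418 with at least 20 readthrough reads were those of NDUFAF2, COX5B, NDUFA7, NDUFA6, SDHC, CYC1, UQCC2 and COX7A2L. NDUFAF2, an assembly factor of complex I, had 0 reads in each untreated library and 24 in G418 A, an RRTS of 124% (interval 79.4 to 184%), above 93.7% of the 788 transcripts ending in UGAA. Of the CDS windows of NDUFAF2, 69.6% occur elsewhere in hg38, against 6.06% of its region windows, so the CDS density under this ratio is uncertain. NDUFA7, a matrix-arm subunit that ends in UGAC, had 7, 9 and 91 reads and RRTS of 9.04%, 6.54% and 78.9%. NDUFA6, which binds the acyl carrier protein NDUFAB1 in complex I, had 0, 4 and 46 reads (64.7% in G418). SDHC had 0, 0 and 22 reads (57.9%), CYC1 0, 1 and 41 (56.1%), UQCC2 3, 0 and 20 (55.4%) and COX7A2L 0, 0 and 45 (55.1%). Of the 8, 7 end in UGA and have the region of their gene's MANE Select transcript (the reference model described above), while SDHC ends in UAGA, has another region and shares 100% of its region windows with other places in hg38. An RRTS near or above 100% means that RPFs were as dense past the NTC as in the CDS of the same transcript.

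Under a single signal the values still ranged widely. Of the transcripts shown above that end in UGAG, COX5B had an RRTS of 99.6% in G418 (higher than 93.8% of the 1054 transcripts with this signal, with 22.2% of its region windows also found elsewhere in hg38), COX4I1 33.2%, ATP5MC1 30.8%, ATP5F1B 29.5% and UQCRQ 24.1% (higher than 56.3%), where the pooled value of the signal was 22.8%. The interval of COX5B (85.2 to 116%) lay apart from those of COX4I1 (29.2 to 37.6%), ATP5MC1 (20.1 to 45.1%), ATP5F1B (25.2 to 34.4%) and UQCRQ (19.4 to 29.4%), which overlap in part. The 14 assembly factors had a pooled RRTS of 39.7% in G418 (197 reads) and the 58 subunits 18.1% (2093 reads). UGA ended 71.4% of the assembly factors and 39.7% of the subunits, and given the stop signals the ratios of reads found to reads expected were 1.52 (interval 1.31 to 1.75) and 0.982 (0.941 to 1.03). Among the assembly factors, COX7A2L had 45 reads where 18.6 were expected and NDUFAF2 had 24 where 6.36 were. UQCC2 had 20 where 8.22 were expected and COX17 had 16 where 4.53 were. COX14 had 15 where 19.3 were expected, UQCC1 had 10 where 13.1 were and COX15 had 1 where 4.19 were, all within counting error. NDUFAF1 and NDUFAF5 had 0 reads, but only 0.915 and 0.259 were expected, too few to show a shortfall. Copies elsewhere in hg38 affect NDUFAF2 (69.6% of CDS windows) and COX17 (100% of region windows). Mitochondrial ribosomal protein transcripts had 25.3% and cytosolic ribosomal protein transcripts 10.6%, with ratios of 1.06 and 0.662. These values also depended on the transcript model. With the MANE Select regions alone, assembly factors had 40.4% (ratio 1.42, interval 1.23 to 1.64) and subunits 22.4% (ratio 1.07, interval 1.02 to 1.12). Mitochondrial ribosomal protein transcripts then had 26.5% and cytosolic ones 15.6%, with ratios of 1 and 0.907.

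**Figure D4:**
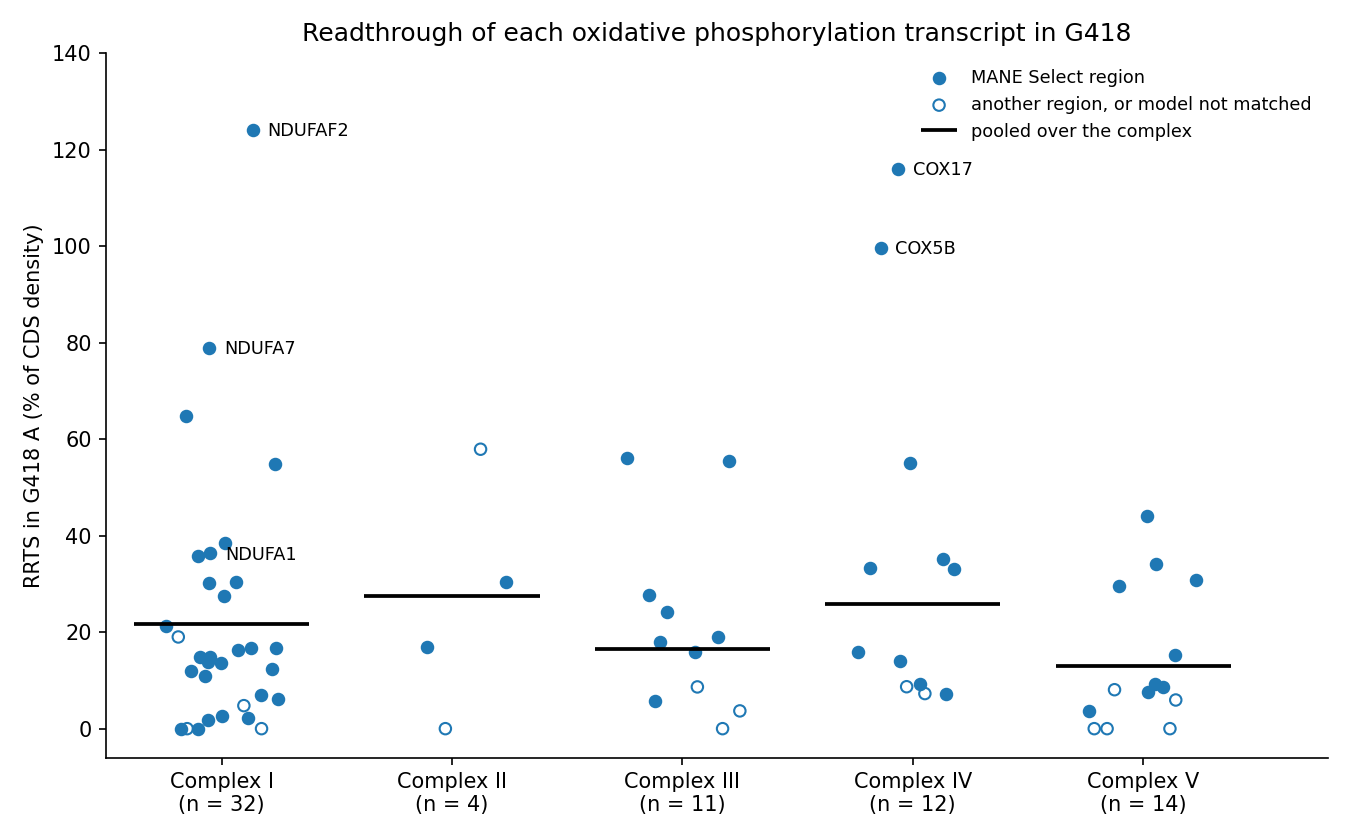
RRTS in G418 A in percent of CDS density (vertical axis) for each of the 73 OXPHOS transcripts, by complex (filled, readthrough region of the MANE Select transcript; open, another region or, for COX7B, no match), with black lines at the pooled RRTS of each complex. COX5B lies at 99.6% and NDUFA1 at 36.3%, while ATP5F1E and ATP5PF are among the 3 open circles at 0 in complex V (the last is ATP5IF1).

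In untreated cells, 10 OXPHOS transcripts had at least 5 readthrough reads in each library. How many of all transcripts did so was not counted. Median CDS density was 272 and 299 RPKM over the 73 (Untreated A, then B) and 37.7 and 38.7 over all transcripts, so the count is no trait of the group. The 10 held 113 of the 164 reads in Untreated A, 120 of 221 in Untreated B and 873 of 2290 in G418 A. They were chosen by their untreated reads, so their shares cannot be compared between untreated cells and G418. The 10 transcripts with most reads in each library held 68.9%, 59.3% and 54.7% of the readthrough reads (Untreated A, Untreated B, G418 A). The 10 with reads in both untreated libraries were UQCRQ, ATP5MPL, ATP5MD, NDUFA1, NDUFB1, UQCRH, UQCR10, COX5B, NDUFA7 and ATP5F1A. UQCRQ had 21 and 18 reads in the untreated libraries (A, then B) and 94 with G418, with RRTS of 4.82%, 2.76% and 24.1%. ATP5MPL, a small membrane protein of complex V, had 17, 27 and 101 reads, with RRTS of 5.07%, 6.01% and 34.2%. ATP5MD, another small subunit of the membrane part, had 12, 9 and 47 reads, with RRTS of 4.47%, 2.27% and 15.3%. NDUFB1, a membrane-arm subunit, had 12, 7 and 27 reads, with RRTS of 14.9%, 5.33% and 30.2%. ATP5F1A, the alpha subunit of the catalytic head, had 6, 7 and 46 reads, with RRTS of 1.39%, 0.997% and 9.34%, and 56.2% of its region windows also occur elsewhere in hg38. Of the 10, 7 passed the readthrough test in G418, and ATP5MD, NDUFB1 and ATP5F1A did not. The untreated reads that chose the 10 also enter this test, so this count says nothing about OXPHOS transcripts in general.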

How the data were processed

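Per the submitters' processing notes, CASAVA 1.8 and STAR were used with GRCh38. The study's methods state that the A site of each fragment (28 to 35 nt) was placed on 1 GENCODE transcript per gene and that replicates were separate biological samples. The authors deposited RPM values, scaled to the reads assigned to transcripts. Whole-number counts deposited by the authors stood beside them, and the CDS count was 1 lower than the reads recovered from RPM (whole to within 0.01 read) for 9080 of 9099 transcripts in Untreated A, 283 of 9311 in Untreated B and 72 of 9370 in G418 A. RPKM densities deposited by the authors leave out 18 nt at the start and 15 nt at the end of each CDS. RRTS is a ratio of RPKM densities that the authors deposited, without the first 6 nt after the stop codon.

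Reads were recovered from RPM. The OXPHOS genes and all lists and tests were chosen with earlier results of these data known. Transcripts had to average 128 CDS reads over the libraries, with regions of 18 nt or more, and were tested with edgeR 4.0.16 (TMM scaling, glmQLFit, glmQLFTest, 1 residual degree of freedom), two-sided, with adjustment over all transcripts tested. For readthrough, CDS reads were the offset and at least 5 reads had to be expected. Each SE was derived from the edgeR fit, as the absolute log2 change over the square root of the F statistic. Both tests were also tried on simulated data, in which the G418 library was set to vary like the untreated ones. Alternatives were DESeq2 1.42.0 (R 4.3.3), the count columns, no TMM scaling, other read minimums, longer regions, leaving out an untreated library and leaving out the transcript with most readthrough reads of each complex. Named genes were NDUFA1, those called for CDS change, the 2 lowest and 2 highest CDS changes of each complex, the 8 highest and 5 lowest RRTS in G418 and those with at least 5 readthrough reads in each untreated library. GENCODE v44 and hg38, which gave positions, MANE Select models and 28-nt windows found elsewhere, matched 79 of the 80 transcripts. Intervals cover counting error only.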

Additional observations from a re-analysis of the deposited data

How the results depend on the processing

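No paired analysis was possible because the groups share a single replicate letter (A). NDUFA1 and ATP5MC1 stayed lower with an adjusted p under 0.05 in every edgeR and DESeq2 test that included them, with adjusted p of NDUFA1 from 5.67e-09 to 0.0043. DESeq2 called 2 OXPHOS transcripts lower, a minimum of 500 CDS reads 2, and leaving out genes with over 20% of CDS windows elsewhere (chosen after seeing the data) 2 (NDUFA1 and UQCR10), where the report has 5. Minimums of 20 reads or none left 4, without ATP5MC2 (adjusted p 0.0611 and 0.0605). Without TMM scaling, 33 transcripts were lower and 173 higher over all, against 41 and 110. The test could not be run without 1 of the untreated libraries, which leaves no residual degree of freedom. In readthrough DESeq2 called 0 OXPHOS transcripts and 0 of all 2317. The cause of these differences was not tested.

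Median log2 CDS changes, in the order all OXPHOS, complexes I, II, III, IV and V, were −0.09, 0.02, −0.09, −0.17, −0.15 and −0.05 without TMM scaling. With a minimum of 20 reads or none, all OXPHOS went to −0.17, complex V to −0.15 and complex II to −0.07 and −0.06. With a minimum of 500 reads, all OXPHOS had −0.11, complex II −0.10, complex III −0.19 and complex V −0.06. Without Untreated A or Untreated B, all OXPHOS had −0.17 and −0.15, complex I −0.07 and −0.04, complex II −0.07 and −0.15, complex III −0.31 and −0.17, complex IV −0.22 and −0.23, and complex V −0.15 and −0.13. Without genes with many copies, complex II had −0.05, complex III −0.22 and complex V −0.19.

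For readthrough, a minimum of 500 CDS reads gave complex II 57.9% in G418 (1 gene, SDHC) and complex IV 0.926% in untreated cells. Regions of at least 60 nt gave all OXPHOS 20.6% in G418 (16.8-fold), complex I 25.3% (from 1.61%, 15.7-fold), complex IV 28% (28.5-fold) and complex V 15.6% (12.3-fold). Without the transcript with most readthrough reads of each complex, all OXPHOS had 16.4% (11.2-fold), complex I 19.3% (from 1.62%), complex II 16.6% (9.93-fold), complex IV 23.1% (from 1.22%, 19-fold) and complex V 10% (from 1.56%, 6.41-fold). With MANE Select regions (chosen after seeing the data), all OXPHOS had 23.3% (from 1.57%), complex I 23.9% (from 1.95%), complex III 21%, complex IV a start of 0.92% (29.1-fold), complex V 20.5% (from 1.93%, 10.6-fold) and complex II 8.82-fold. Without an untreated library the fold ran from 12.8 to 15.8 for all OXPHOS, 11.5 to 12.5 in complex I, 10.4 to 20.1 in complex III, 25.7 to 26.9 in complex IV and 8.91 to 10.4 in complex V, and it was 11.1 in complex II without Untreated A. The untreated readthrough values rest on few reads (164 and 221), and 1 G418 library gives no spread between cultures.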

Other observations

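Reads in 5′UTRs made up 1.27% of the reads on the 73 transcripts in Untreated A (979 reads), 1.26% in Untreated B (1600 reads) and 0.761% in G418 A (699 reads), and 2.05%, 2.14% and 1.83% over all transcripts. This difference was not tested. UQCRH and NDUFV1, chosen after their values were seen, held many of these reads. In UQCRH, 219 of 1280 reads lay in the 5′UTR in Untreated A (17.1%), 389 of 2068 in Untreated B (18.8%) and 93 of 1174 in G418 A (7.92%). In NDUFV1, the NADH-binding subunit of complex I, the shares were 19.1%, 11.8% and 4.07%. Both shares were lower in G418 than in either untreated library. Without them the shares of the other 71 were 0.808%, 0.852% and 0.633%.

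In the 67 OXPHOS transcripts with an in-frame 3′TC, density beyond it was 0.145% of CDS density in Untreated A (123 reads), 0.122% in Untreated B (162 reads) and 0.774% in G418 A (746 reads), where the readthrough region had 1.55%, 1.32% and 20.2%. Over all 5436 such transcripts, density beyond the 3′TC was 0.178%, 0.158% and 0.856%.

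SDHAF1, an assembly factor of complex II under the minimum of CDS reads, had 0 readthrough reads in each untreated library and 21 in G418 A, an RRTS of 81.2% (Poisson 95% interval 50.3 to 124%). COX17, a copper chaperone of complex IV with 2, 1 and 16 readthrough reads, had an RRTS of 116% in G418, and 100% of its region windows also occur elsewhere in hg38.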
